A study of Mus musculus with 6 samples.

Results

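The melanin and pigment epithelium genes are 8 genes chosen by name: Tyr, Tyrp1, Dct, Pmel, Mlana and Slc45a2, which act in melanin synthesis, the transcription factor gene Mitf, and Ttr, which encodes transthyretin. The table names 12393 genes, and the platform annotation maps 15 of the 22626 non-control probe sets to 7 of these genes. It lists no probe set for Mlana, which was not analysed here. Of the 15 probe sets, 12 had a mean signal above the filter used for testing (62.4 units), and the other 3 (1 of Tyr and both of Mitf) lay below it.

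The study set retinae of knockout mice against wildtype retinae at postnatal day 7, with 1 Affymetrix array per sample and 6 arrays in all. The labels give 3 arrays to C57BL/6 wildtype mice and 3 to knockout mice, which are hemizygous (-/Y) and also labelled C57BL/6. How the knockout allele was made, the sex of the wildtype mice and the number of animals behind an array are not given in the sources used here, so a p-value here reflects how far the 6 samples spread, some of which may be technical. The only handling stated is dissection of the retina, and the arrays come from whole tissue, in which fewer cells of a type and less RNA per cell cannot be told apart.

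Melanin is made in melanosomes of the retinal pigment epithelium, of the pigmented layers of the ciliary body and iris, and of melanocytes in the choroid. The neural retina makes none, and the pigment epithelium lies against its photoreceptors, so that dissected retina may carry some of it along. Tyrosinase (Tyr) starts melanin synthesis from tyrosine, its relatives Dct and Tyrp1 act on later intermediates, Pmel forms the fibrils on which melanin settles, and Slc45a2 is a melanosome membrane transporter. Mitf is the basic helix-loop-helix factor that switches these genes on in pigment cells, through a DNA motif with the core CATGTG. Transthyretin carries thyroxine and retinol-binding protein and, in the eye, is known from the pigment epithelium.

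The 3 enzyme genes of the tyrosinase family are shown by their promoters, because they share a motif and their probe sets are described together below. Each window runs from 250 bases before to 50 bases after a RefSeq start site in GRCm38.p6, 5′ to 3′ on the gene's strand, and the capitals mark CATGTG or its reverse complement CACATG. The windows are Tyr at chr7:87493463-87493762 (minus strand), Tyrp1 at chr4:80833963-80834262 (plus strand) and Dct at chr14:118052197-118052496 (minus strand).
Tyr: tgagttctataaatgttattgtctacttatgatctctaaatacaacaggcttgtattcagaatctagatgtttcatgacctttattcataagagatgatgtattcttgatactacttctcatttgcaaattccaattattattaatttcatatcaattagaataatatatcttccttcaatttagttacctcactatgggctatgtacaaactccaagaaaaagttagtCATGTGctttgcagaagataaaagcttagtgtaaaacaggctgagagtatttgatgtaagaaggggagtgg
Tyrp1: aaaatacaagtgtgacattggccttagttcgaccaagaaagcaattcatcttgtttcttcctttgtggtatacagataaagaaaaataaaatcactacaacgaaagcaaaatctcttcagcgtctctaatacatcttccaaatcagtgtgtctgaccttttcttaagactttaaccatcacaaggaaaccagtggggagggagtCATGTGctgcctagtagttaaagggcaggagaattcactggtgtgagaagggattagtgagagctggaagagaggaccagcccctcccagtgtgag
Dct: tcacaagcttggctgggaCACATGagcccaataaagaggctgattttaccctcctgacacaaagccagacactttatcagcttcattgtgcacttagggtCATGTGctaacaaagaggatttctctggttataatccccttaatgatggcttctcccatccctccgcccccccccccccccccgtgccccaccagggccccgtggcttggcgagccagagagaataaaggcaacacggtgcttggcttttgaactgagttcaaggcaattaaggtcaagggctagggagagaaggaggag

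Counted from the start site of each window, the motif begins 21 bases before it in Tyr, 46 bases before it in Tyrp1, and 232 and 150 bases before it in Dct, the former on the opposite strand. In each of the 3 genes the core is also part of the longer TCATGTG, which contains CATGTG. Searched on both strands, CATGTG was found in 14.2% of the 32851 RefSeq promoter windows of the same length and TCATGTG in 3.77%. None of the 3 Mitf windows holds either motif. RefSeq windows were matched for 4 of the 8 genes. A match is a description of the letters and not a measured binding site.

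None of the 15 probe sets differed between knockout and wildtype at an adjusted p of 0.05. The test was limma with an intensity trend and Benjamini-Hochberg adjustment over 13575 probe sets, of which 0.0147% passed (2 probe sets, neither with a gene name here). The adjusted p was 0.999 for each of the 12 tested members in limma. In the fit of all 22626 probe sets, where 0.00442% passed, it was 0.999 for the other 3 as well. No member reached an unadjusted p of 0.05, which 3.82% of the tested probe sets did, and the smallest was 0.12, for a Ttr probe set. The log2 fold change, knockout minus wildtype, was positive for 9 and negative for 6 of the 15, with a median of 0.11, where 46.2% of all probe sets were positive and their median was -0.017. A fold change here is of log2(signal + 19.1), which understates changes of dim probe sets. The widest 95% intervals, those of Ttr, still reach beyond 1.4 log2 units, so changes of that size were not excluded by 3 arrays a group.

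**Figure D1:**
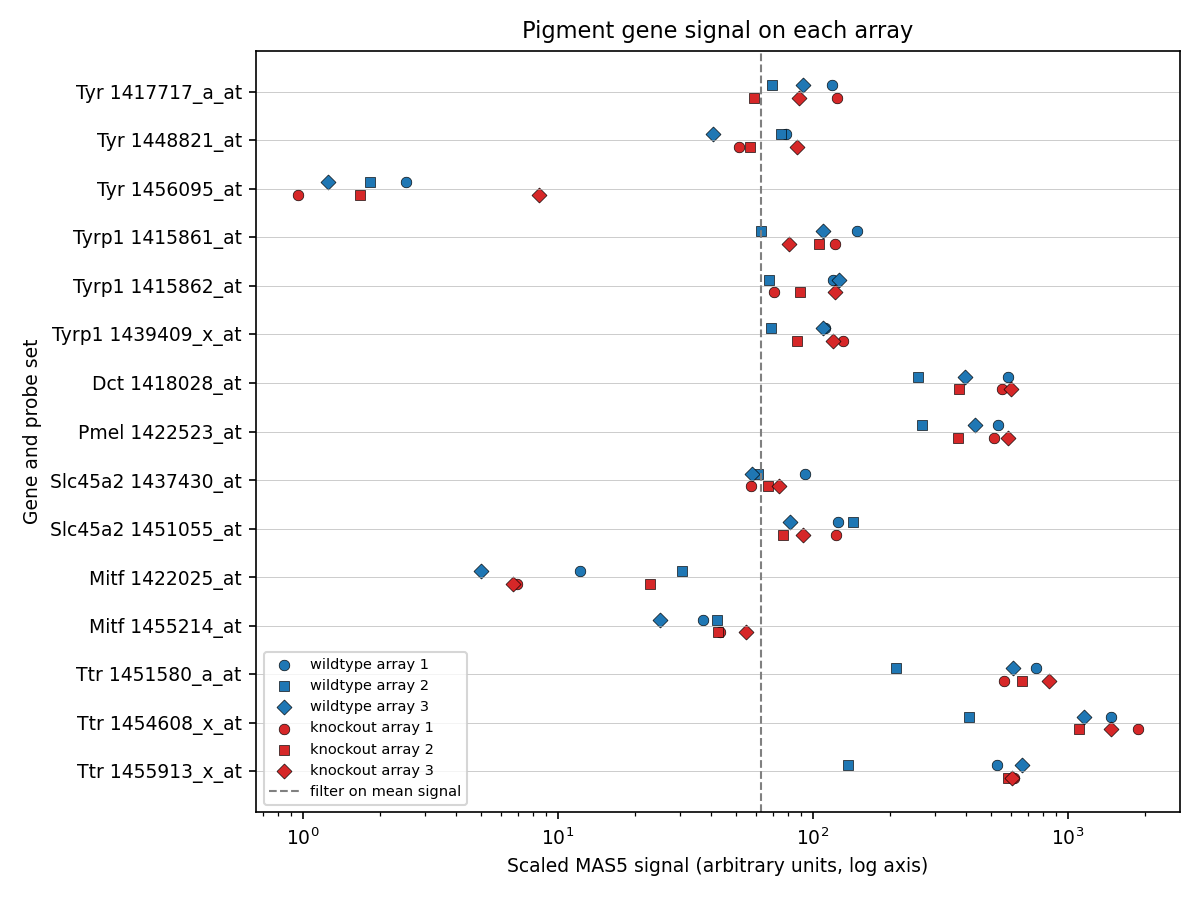
Scaled MAS5 signal of the 15 pigment gene probe sets (log axis, arbitrary units), 1 point per array, with wildtype in blue and knockout in red. The dashed line is the filter on the mean signal (62.4). Wildtype array 2 (blue square) is the lowest point of all 3 Tyrp1 rows, of Dct, of Pmel and of all 3 Ttr rows, and the Tyr row 1456095_at lies under 9 units on every array.

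Signals were scaled so that every array has the same trimmed mean. Before this, the trimmed means ranged from 171 to 312 in wildtype and from 263 to 304 in knockout arrays. All 12 retinal marker genes with a probe set were above the filter, and the rod factor gene Nrl had 5280 to 6870 units on the 6 arrays. Wildtype array 2 and knockout array 1 stood out in the 18S ribosomal control probe sets, whose mean signal was 983 and 273 units against 56.1 to 63.6 on the other 4 arrays.

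Among the enzymes, Dct, the dopachrome tautomerase, was well detected. Its scaled signal was 582, 258 and 395 units in wildtype arrays 1 to 3 and 552, 374 and 599 in knockout arrays 1 to 3. The highest array, knockout 3, had 2.32 times the lowest, wildtype 2, and the groups overlapped over most of their range. The means were 412 ± 163 and 509 ± 119 in wildtype and knockout (SD, n = 3), which gives a log2 fold change of 0.34 ± 0.28 (SE; 95% interval -0.30 to 0.98; limma adjusted p = 0.999). Without wildtype array 2 the log2 fold change was 0.054, and without any other single array it lay between 0.21 and 0.61.

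Tyr, which carries out the first and rate-limiting step of melanin synthesis, has 3 probe sets that did not vary alike. The first, 1417717_a_at, had 119, 69.1 and 91.6 units in wildtype and 124, 58.7 and 88.2 in knockout. Wildtype 1 and knockout 1 were high and wildtype 2 and knockout 2 low, so the spread lay within both groups and the log2 fold change was -0.059 ± 0.27 (SE). The second, 1448821_at, had 78.5, 75.2 and 40.7 units in wildtype and 51.4, 56.7 and 87.0 in knockout. Here wildtype 3 was lowest and knockout 3 highest, an order unlike that of the first. Its mean of 64.9 units lay close to the filter, and its log2 fold change was 0.015 ± 0.27 (SE). The third, 1456095_at, gave 0.96 to 2.54 units on 5 arrays and 8.44 on knockout 3, near the bottom of all signals.

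Tyrp1, which oxidises a late indole intermediate in mouse melanosomes, has 3 probe sets, with means of 105, 99.2 and 105 units. The first, 1415861_at, had 149, 62.8 and 110 units in wildtype and 122, 106 and 80.7 in knockout. The second, 1415862_at, had 120, 67.2 and 127 in wildtype and 70.4, 89.3 and 122 in knockout. The third, 1439409_x_at, had 112, 68.8 and 110 in wildtype and 131, 86.4 and 120 in knockout. Wildtype 2 was lowest on all 3, but the highest array was a different one on each (wildtype 1, wildtype 3 and knockout 1). The log2 fold changes were -0.0049 ± 0.28, -0.12 ± 0.26 and 0.19 ± 0.23 (SE), without a common sign.

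Pmel, whose product is cut and assembled into the melanosome's amyloid fibrils, had 530, 268 and 432 units in wildtype and 512, 371 and 581 in knockout. Wildtype 2 was lowest and knockout 3 highest, with the same order of all 6 arrays as Dct. The means were 410 ± 132 in wildtype and 488 ± 107 in knockout (SD, n = 3). The change was 0.27 ± 0.26 log2 units (SE; 95% interval -0.31 to 0.85; limma adjusted p = 0.999), and 0.0043 without wildtype array 2, against 0.14 to 0.47 without any other single array.

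Slc45a2, the transporter gene mutated in underwhite mice, has 2 probe sets. The first, 1437430_at, had 93.0, 61.0 and 57.6 units in wildtype and 57.3, 66.5 and 73.4 in knockout. Its mean of 68.1 units lay close to the filter. The second, 1451055_at, had 126, 144 and 81.7 in wildtype and 123, 76.2 and 91.2 in knockout. On the second, wildtype 2 was the highest array, the reverse of its place in Dct and Pmel. The log2 fold changes were -0.063 ± 0.22 and -0.22 ± 0.24 (SE), and the groups overlapped in both.

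Mitf was dim on this platform. Probe set 1422025_at had 12.2, 30.6 and 4.99 units in wildtype and 6.93, 23.0 and 6.69 in knockout, a range of 6.14-fold within wildtype and 3.43-fold within knockout. Probe set 1455214_at had 37.0, 41.9 and 25.1 in wildtype and 43.4, 42.4 and 54.9 in knockout. All 3 knockout arrays lay above all 3 wildtype arrays on the latter, with 41.9 and 42.4 units on the closest arrays. It was the only member whose groups did not overlap, 1 of 15 where 8.84% of all probe sets had groups that did not. The change was 0.30 ± 0.21 log2 units (SE; 95% interval -0.17 to 0.78; limma adjusted p = 0.999 over all probe sets), and that of the other Mitf probe set was -0.14 ± 0.29.

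Of the 12 member probe sets above the filter, the 3 of Ttr had the largest spread between arrays. Probe set 1451580_a_at had 749, 211 and 609 units in wildtype and 562, 659 and 844 in knockout. Probe set 1454608_x_at had 1470, 411 and 1160 in wildtype and 1880, 1110 and 1480 in knockout. Probe set 1455913_x_at had 529, 137 and 662 in wildtype and 614, 581 and 605 in knockout. On all 3, wildtype array 2 lay far below the other 5 arrays, which overlapped whatever their genotype.

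Between the highest and lowest array the 3 Ttr probe sets differed by 4.0-fold, 4.57-fold and 4.85-fold, where the median over the tested probe sets was 1.60-fold. Within wildtype the ranges were 3.55-fold, 3.59-fold and 4.85-fold, and within knockout 1.5-fold, 1.69-fold and 1.06-fold. Their residual standard deviations stood at the 97.9, 98.3 and 99.1 percentile of the tested probe sets. The log2 fold changes, knockout minus wildtype, were 0.54 ± 0.39, 0.70 ± 0.40 and 0.68 ± 0.45 (SE; limma adjusted p = 0.999 for each). Without wildtype array 2 they were 0.0074, 0.15 and 0.018, so the size of these values rested on that array. With any other single array left out, they lay between 0.39 and 1.08.

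**Figure D2:**
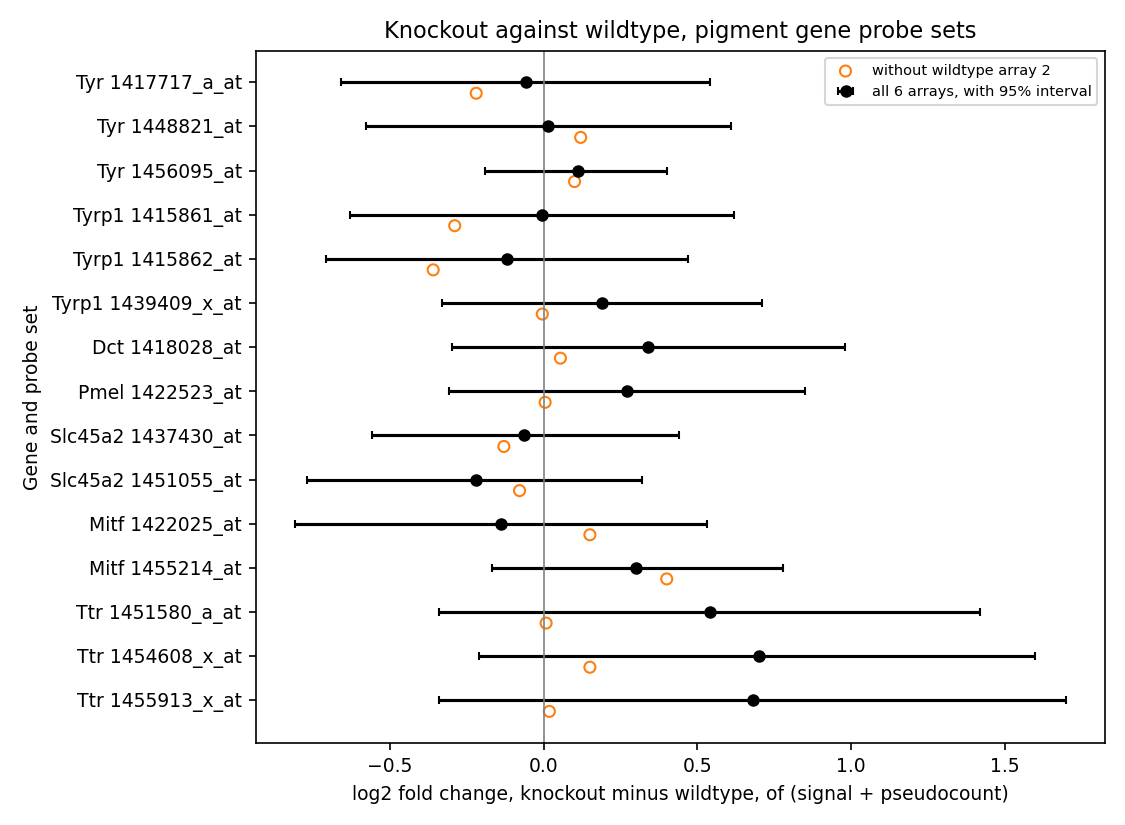
log2 fold change of each probe set, knockout minus wildtype (black points, bars are 95% intervals of limma, 3 arrays a group), with the value after leaving out wildtype array 2 (open orange circles). Every interval includes 0, and the values of Dct, Pmel and the 3 Ttr probe sets lie between 0.0043 and 0.15 without that array.

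By the median, the tested members varied more between arrays of the same genotype than all tested probe sets. The median residual standard deviation was 0.40 log2 units for the 12 tested members and 0.23 for all tested probe sets. Among these, Slc45a2 1437430_at stood at the 50.5 percentile. Of the members below the filter, Tyr 1456095_at stood at 31.3 and Mitf 1455214_at at 38.6, and every other member at 69.5 or above. Wildtype array 2 was the lowest array for 8 of the 12 tested members, or 66.7%, where it was lowest for 15.6% of all tested probe sets. The 8 belong to 4 genes, namely Tyrp1 and Ttr with 3 probe sets each, Dct and Pmel. With median scaling and with quantile normalization it was lowest for 75.0% of the 12, against 26.5% and 17.5% of all tested probe sets. Without rescaling it was lowest for 83.3%, but then also for 75.9% of all tested probe sets. The 18S control signal was highest on this array, and its part in the low pigment signals was not tested. Knockout array 1, with the next highest 18S signal, was the lowest array for 2 and the highest for 3 of the 15 probe sets.

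Dct and Pmel followed each other across the arrays whatever their genotype. On the log2 scale, each alone ranged over 1.21 and 1.12 units, but the difference between them within an array ranged over 0.27 units. An array's scale factor cancels in this difference but for the pseudocount. Over the 6 arrays Pearson's r was 0.98 (exact permutation p = 0.0014, adjusted p = 0.029 over 21 pairs of the 7 genes) and Spearman's rho was 1.0 (exact permutation p = 0.0028, adjusted p = 0.058). All tests were two-sided, on the brightest probe set of each gene. Without the 2 arrays farthest from the median of Dct, wildtype 2 and knockout 3, r was 0.96. Of the other 20 pairs, none passed after adjustment. For Tyrp1 the result depended on the probe set. The one used, 1415861_at, had r 0.62 with Dct, 0.59 with Pmel and 0.74 with Ttr. Tyrp1 1439409_x_at, with the same rounded mean of 105 units, had 0.91, 0.94 and 0.94, and 1415862_at had 0.5, 0.59 and 0.43. The latter probe sets were not tested in pairs.

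Ttr followed both less closely. Its r was 0.92 with Dct and 0.92 with Pmel (exact permutation p = 0.013, adjusted p = 0.088 for each; rho 0.83, exact permutation p = 0.058, adjusted p = 0.41 for each). Without the 2 arrays farthest from the median of the other gene these were 0.87 and 0.57. The difference between Ttr and Dct within an array ranged over 1.10 log2 units. Of all 21 pairs, 15 had a positive r and 6 a negative one. Those of Slc45a2 1451055_at with Dct, Pmel and Ttr were -0.11, -0.22 and -0.33 (exact permutation p = 0.86, 0.69 and 0.64). Without the 2 arrays farthest from the median of Dct, Pmel and Slc45a2 in turn, they were 1.0, 0.38 and 0.76. The dimmer Slc45a2 probe set, 1437430_at, had 0.5, 0.43 and 0.25 over all arrays. The sign for Slc45a2 thus depended on the probe set and on the arrays used. Probe sets share an array's RNA and its hybridization, so a common movement is not specific to the genes.

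**Figure D3:**
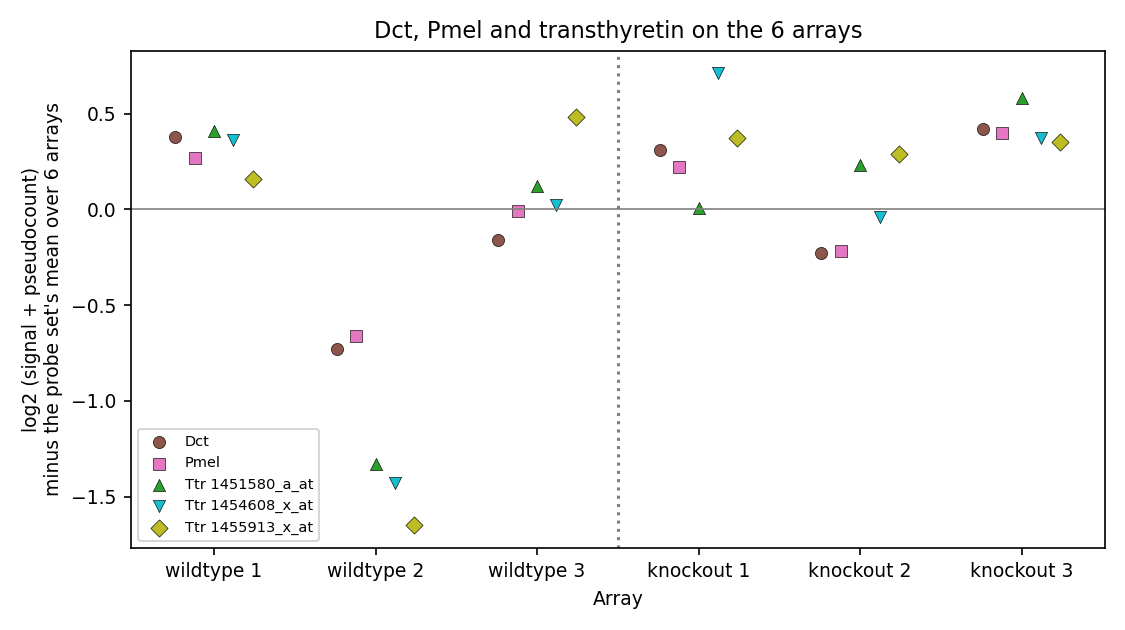
Signal of Dct, Pmel and the 3 Ttr probe sets on each array, as log2(signal + 19.1) minus the mean of that probe set over the 6 arrays. On wildtype array 2 Dct and Pmel stand at -0.73 and -0.66 and the Ttr probe sets between -1.65 and -1.33, while on the other 5 arrays every point lies between -0.23 and 0.71.

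Genes with the most similar pattern were looked up among 12528 named probe sets above the filter. To the mean pattern of the 5 melanin genes above the filter (Tyr, Tyrp1, Dct, Pmel and Slc45a2), the closest over 6 arrays were Pef1 (Pearson's r 0.997), Slc7a4 (0.990), BC004004 (0.987), Tnpo3 (0.985) and Ecd (0.981). To Ttr the closest were Txnrd3 (0.995), Pdk1 (0.990), Car14 (0.987), Dcun1d5 (0.982) and Abca7 (0.980). With 6 arrays, an r over 0.9 was reached by 0.583% of these probe sets for the melanin pattern and by 0.678% for Ttr. Of the 10 genes, Abca7 ranged over 2.05 log2 units between arrays and the others over 0.17 to 0.67.

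Other genes of pigment epithelium were listed by name, and 8 of the 13 with a probe set were above the filter. With a limma adjusted p of 0.999 for each, none passed; there were 5 positive and 3 negative log2 fold changes and a median of 0.05. The summed signal of all 13 was 6620 to 6790 units in wildtype and 6810 to 7350 in knockout, and this sum was not tested. Most of it came from Otx2, a homeobox gene (3080 ± 248 and 3280 ± 471, SD, n = 3), and Rlbp1, the retinaldehyde carrier (1340 ± 149 and 1340 ± 273). Both genes are also active in the neural retina. Of the dimmer genes, named after their values were seen, the retinol dehydrogenase gene Rdh5 had 184, 65.3 and 126 units in wildtype and 170, 130 and 146 in knockout. Rgr, an opsin-like gene, had 150, 47.0 and 126 in wildtype and 100, 85.9 and 118 in knockout. Both were lowest on wildtype array 2, and they were the only 2 of the 8 tested genes of the list that were. Rrh, another opsin-like gene of the list, was highest there, at 375 units against 326 to 372 on the other 5 arrays. After subtraction of each gene's mean, the log2 mean of the 8 tested genes was 0.13, -0.26 and -0.02 on the wildtype arrays. It was 0.12, -0.05 and 0.075 on the knockout arrays. The melanin gene mean was 0.34, -0.37 and -0.066 on the wildtype and 0.27, -0.25 and 0.074 on the knockout arrays. Both means ranked the arrays in the same order, with wildtype array 2 lowest, and this likeness was not tested.

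Rpe65, the visual cycle isomerase that defines the pigment epithelium, was below the filter and is likewise named after its values were seen. It had 56.7, 50 and 44.4 units in wildtype and 72.8, 65.6 and 76.8 in knockout. The groups did not overlap, where 8.84% of all probe sets had groups that did not. The lowest wildtype array was number 3, and the change was 0.39 ± 0.20 log2 units (SE, limma adjusted p = 0.999 over all probe sets). Lrat, its partner in the cycle, had 9.82 to 26 units over the 6 arrays.

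Other pigmented or adjoining tissues were checked in the same way. Of 8 melanocyte genes with a probe set, 4 were above the filter, none passed, and the log2 fold changes were positive for 3, with Tfap2a at 0.089 and Kit at 0.025. The exception, named after its values were seen, was Sox10, a melanocyte and glial factor gene that is also in the list of Mitf regulators. It had 137 ± 37.3 units in wildtype and 98.6 ± 5.19 in knockout (SD, n = 3). Its change was -0.38 ± 0.21 log2 units (SE, limma adjusted p = 0.999). Its groups did not overlap, which held for 8.84% of all probe sets. The melanocyte receptor gene Mc1r had 2.00 to 20.2 units over the 6 arrays. Of 12 ciliary and iris epithelium genes, 6 were above the filter, all 6 had positive values (median 0.23) and none passed, with Col9a1 at 0.12 and Ptgds, a prostaglandin synthase, at 0.25. The list's mean was highest on knockout array 1, at 0.61, and lowest on wildtype array 2, at -0.35, where the melanin gene mean was 0.27 and -0.37. Of these 6 ciliary and iris epithelium genes, 4 were lowest on wildtype array 2. Their part in the pigment gene signals was not tested. Of the choroid plexus genes, known for transthyretin in the brain, 3 of 5 were above the filter, 2 with positive values (Otx2 0.079 and Sostdc1 0.25) and 1 with a negative value (Folr1 -0.059), and none passed. None of the 3 listed blood genes was above the filter.

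**Figure D4:**
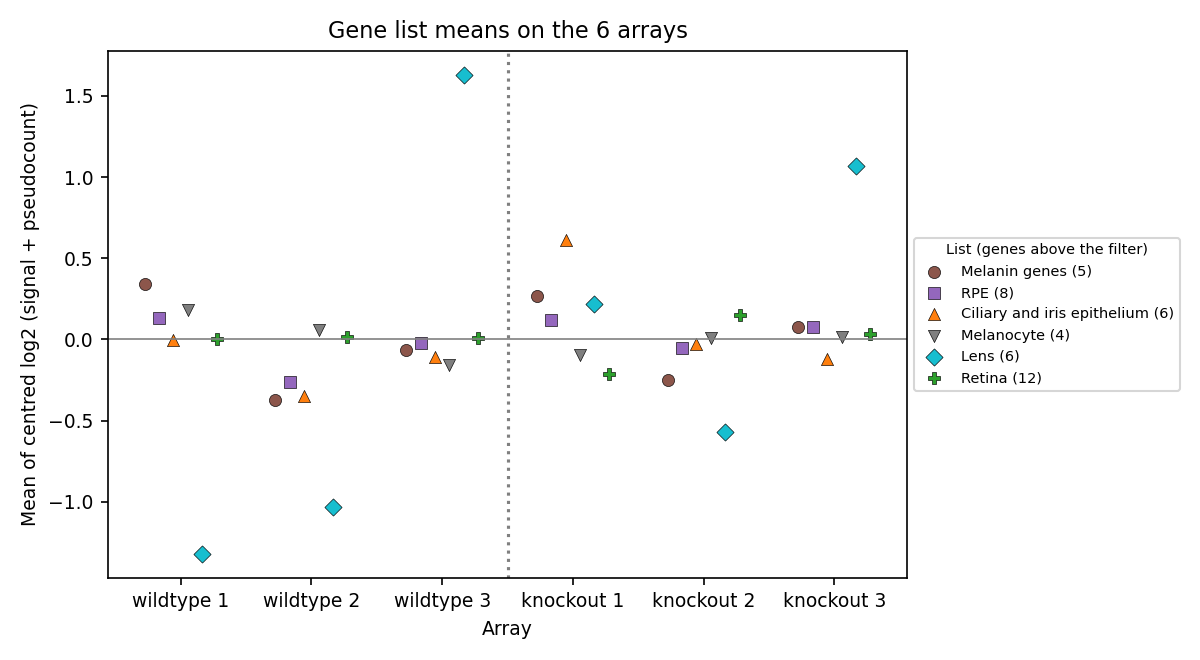
Mean of the centred log2(signal + 19.1) over the genes above the filter in 6 lists, on each array. The melanin gene mean runs from -0.37 on wildtype 2 to 0.34 on wildtype 1, the retina list from -0.21 to 0.15, and the lens list, highest on wildtype 3, from -1.32 to 1.63.

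The lens list mean ranged over 2.94 log2 units between arrays. Of the 6 lens genes above the filter, 3 were lowest on wildtype array 2, all 6 had positive log2 fold changes and none passed. The list mean stood at -1.32, -1.03 and 1.63 on the wildtype arrays and at 0.22, -0.57 and 1.07 on the knockout arrays, highest on wildtype 3, where the melanin gene mean was -0.066. Of 8 choroid and vessel genes, 5 were above the filter, with 2 positive and 3 negative log2 fold changes (median -0.22), and none passed; 2 of the 5 were lowest on wildtype 2.

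Of 25 genes for melanosome assembly and transport with a probe set, 15 were above the filter, 12 of these had positive and 3 negative log2 fold changes, and none passed. Their median was 0.07, and all tested probe sets were positive in 50.1% of cases. Ap3d1, a subunit of the adaptor that sorts cargo to melanosomes and lysosomes, had 848 ± 35.2 units in wildtype and 966 ± 143 in knockout, and Bloc1s6 had 808 ± 129 and 887 ± 80.6 (SD, n = 3). Such genes serve lysosome-related organelles in many cells, and their list mean ranged over 0.20 log2 units between arrays. The pigment cell genes in the list were dim: Oca2 had 41.9 to 85.9 units, Gpr143 17.2 to 55.1 and Gpnmb 12.9 to 48.4 over the 6 arrays, each with overlapping groups.

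Of the Mitf family and its regulators, 11 had a probe set and 7 were above the filter, with 3 positive and 4 negative log2 fold changes, and none passed. Ctnnb1, which encodes beta-catenin, had 3690 ± 106 and 2860 ± 449 units in wildtype and knockout (SD, n = 3). Its groups did not overlap, as those of 8.84% of all probe sets did not. Its change was -0.38 ± 0.13 (SE, limma adjusted p = 0.999). The Mitf relatives Tfeb and Tfec had 10.9 to 33.3 and 0.827 to 1.91 units. Of the genes for thyroid hormone and retinol carriage, 5 of 12 were above the filter, with 3 positive and 2 negative values, and none passed. Rbp3, the retinoid carrier between photoreceptors and pigment epithelium, had 3870 ± 402 and 4460 ± 1100 units, and the thyroid hormone receptor gene Thra had 1530 ± 291 and 2030 ± 729. Rbp4, transthyretin's partner in blood, had 38.6 to 51.8 units and was below the filter.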

How the data were processed

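Affymetrix arrays measured retinal RNA of 3 wildtype and 3 knockout samples. The deposited intensity values are linear probe set signals from MAS5, per the submitters' processing notes; its version, scaling target and detection calls are not given in the sources used here. Groups come from the sample titles. Here 64 control probe sets were removed, arrays were brought to a common mean (2% trimmed from either end), and a pseudocount of 19.1 (20th percentile over all signals) preceded log2. Probe sets with a mean above the 40th percentile (62.4 units) were tested, 13575 of 22626, with limma 3.58.1 (R 4.3.3), lmFit and eBayes with an intensity trend, at a Benjamini-Hochberg adjusted p of 0.05. Members below the filter were read from the fit without one.

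Gene names are those of the platform annotation, updated through Entrez identifiers: 20380 had 1 symbol, 691 several and 1555 none. All member probe sets are named, with the 5 most similar genes per pattern. The rule for lists was to name the 2 brightest genes. It was not followed in full for the retina, lens, blood, and choroid and vessel lists. Other list genes named, such as Lrat, Mc1r, Oca2 and Rbp4, were picked outside this rule. In lists, a gene is given by its brightest probe set. Members, lists and the alternatives were chosen with earlier results of these data known. Identifiers with _x_at, _s_at or _a_at mark probe sets that other transcripts can also bind, whether of the same gene or of other genes. The knocked-out gene is not reported here. The fit was tested on simulated arrays.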

Additional observations from a re-analysis of the deposited data

How the results depend on the processing

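Precision is limited by 3 arrays a group and, for Mitf and 1 Tyr probe set, by signals near the bottom of the scale. The alternatives changed the scaling, the pseudocount, the filter, the variance trend or the weights of arrays, blocked on the replicate number, or left out arrays. The number of member probe sets past the threshold was 0 in all 17 alternatives (limma, smallest adjusted p = 0.68, with the replicate block). At an unadjusted p under 0.05 there were 4 without rescaling, 1 with the block, 1 without wildtype array 1 and 0 in the others. Their median log2 fold change (0.11) ranged from 0.0074 to 0.23 with 1 array left out, was 0.21 with the lower and 0.039 with the higher pseudocount and 0.17 with array weights, and was 0.27 without rescaling, where the median of all tested probe sets was 0.29, and -0.027 without wildtype 2 and knockout 1. The count over all probe sets (2) was 10 without rescaling, 1 without a filter, 4 without wildtype 2 and knockout 1, and 0 to 4 with 1 array left out (0 without wildtype 3, 1 without knockout 2 or knockout 3, 4 without wildtype 2). With the replicate block it was 2. The correlation of deviations between arrays of the same number was 0.18, -0.03 and 0.08, and not every array correlated best with its own number. With deviations taken from the mean of only 3 arrays a group, these values cannot show whether the numbers pair the arrays.

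Of 255 log2 fold changes under an alternative, 33 had another sign than in the report, none of a value that had passed, and the cause was not tested. Without rescaling these were Tyr 1417717_a_at (0.19), Tyrp1 1415861_at (0.25) and 1415862_at (0.12), Slc45a2 1437430_at (0.18) and 1451055_at (0.054) and Mitf 1422025_at (0.033). With median scaling and quantile normalization they were Tyr 1417717_a_at (0.021 in both), Tyrp1 1415861_at (0.074 and 0.073) and Slc45a2 1437430_at (0.011 and 0.012). Tyrp1 1415861_at was 0.0014 with the lower pseudocount and Tyrp1 1415862_at was 0.083 with array weights. Without wildtype 2 and knockout 1, Tyrp1 1439409_x_at (-0.11), Dct (-0.016), Pmel (-0.04), Mitf 1422025_at (0.26) and Ttr 1454608_x_at (-0.027) turned. With 1 array left out, or both of those, the ranges of those that turned were -0.43 to 0.16 for Tyr 1417717_a_at, -0.21 to 0.23 for 1448821_at and -0.039 to 0.19 for 1456095_at, -0.4 to 0.23 for Tyrp1 1415861_at, -0.36 to 0.038 for 1415862_at and -0.11 to 0.34 for 1439409_x_at (-0.0049 without wildtype 2), -0.16 to 0.11 for Slc45a2 1437430_at, -0.37 to 0.26 for Mitf 1422025_at, -0.016 to 0.61 for Dct, -0.04 to 0.47 for Pmel and -0.027 to 1.05 for Ttr 1454608_x_at.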
